A study of Mus musculus with 2 samples.

Results

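The 30 genes described here encode the pyruvate dehydrogenase complex, enzymes of the tricarboxylic acid (TCA) cycle, and enzymes that feed carbon into the cycle or draw it out. They were chosen by name, as pathway members, and all 30 were found among the 22838 genes of the deposited table. Messenger RNA was measured in NIH3T3 cells, an established mouse fibroblast line, with 1 library from untreated cells and 1 from cells kept for 16 h in 100 µM ALA. ALA is not spelled out in the labels. In heme research the abbreviation means δ-aminolevulinic acid, the product of the first step of heme synthesis. Nothing else distinguishes the groups in the labels, and each group is a single library of 1 line.

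The pyruvate dehydrogenase complex turns pyruvate into acetyl-CoA, and citrate synthase joins acetyl-CoA to oxaloacetate to start the cycle. The 2-oxoglutarate dehydrogenase complex forms succinyl-CoA, which succinyl-CoA ligase converts to succinate. Succinyl-CoA is also the substrate that ALA synthase condenses with glycine to make ALA, so heme synthesis leaves the cycle at this step. Anaplerotic reactions, such as pyruvate carboxylation and glutamate oxidation, refill the cycle when intermediates are withdrawn.

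The values are FPKM, fragments per kilobase of transcript scaled for library size, so levels can be set side by side between genes. Ratios between libraries are given as log2((ALA FPKM + 1)/(untreated FPKM + 1)), while folds divide the FPKM values directly. Since each group is 1 library, differences have no replicate check, no p-value is given, and "higher" and "lower" compare these libraries only. The table has no counts, but steps between low values gave an estimate of 23400000 reads for the untreated library and 31600000 for the ALA library. Approximate 95% intervals computed from that estimate cover counting error alone. All 8 fibroblast markers examined were present, from 19.7 to 4976 FPKM, while no marker of epithelial, blood, erythroid, muscle or adipocyte cells exceeded 2.501 FPKM. In bulk RNA, fewer cells that express a gene and less of its RNA per cell cannot be told apart.

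The genes as a whole differed little between the libraries, and none reached 1.5-fold on the log2 scale in either direction. The 10929 genes whose FPKM averaged at least 1 over both libraries are called measured here, and of these 13.1% reached 1.5-fold and 3.5% reached 2-fold. In the range of mean levels that the 30 genes span, 7.27% of 6124 measured genes reached 1.5-fold. At 1.2-fold, a limit chosen after the values were seen, 7 of the 30 genes were higher and 4 lower, together 36.7%. Of the measured genes in the same level range 35.3% passed that limit, 16.9% higher and 18.4% lower, so the share of the 30 genes lay near the background. Their median log2 ratio was 0.04, with 17 higher and 13 lower, and the median of all measured genes was -0.02, with 47.8% higher. When both libraries were scaled to equal FPKM totals, 22 of the 30 genes were higher and 8 lower, while 56.9% of all measured genes were higher and their median was 0.05.

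All 30 genes were well expressed in both libraries, from 10.3 to 146 FPKM untreated and from 9.83 to 180 FPKM with ALA. The median level was 55.2 FPKM untreated and 52.6 FPKM with ALA, against 13.7 and 13.6 FPKM for all measured genes. In the untreated library Mdh2, Cs, Pdha1, Glud1 and Got2 were the most abundant, and Pcx, Pdhx, Dlat and Ogdhl the least abundant. Summed over the 30 genes, FPKM was 1754 untreated and 1877 with ALA. The plot of levels by gene shows these values grouped by metabolic step.

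**Figure D1:**
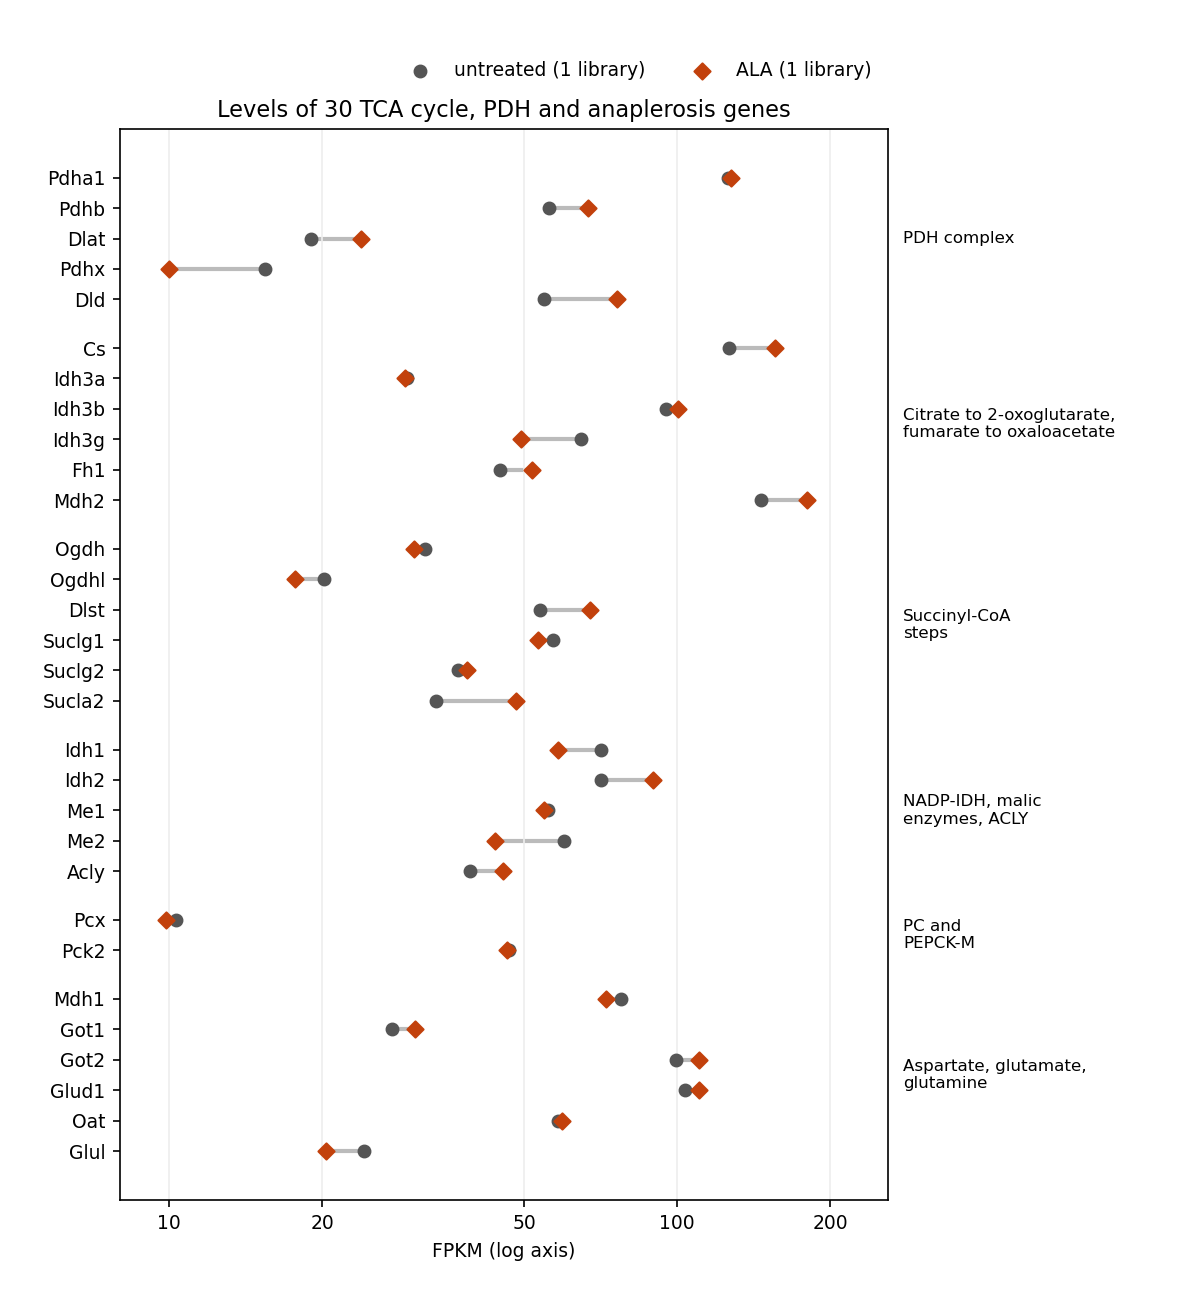
FPKM (log axis) of each of the 30 genes in the untreated library (grey circles) and the ALA library (orange diamonds), 1 library each, grouped by metabolic step. Levels ran from 9.83 to 180 FPKM, and the widest gaps between the libraries were those of Pdhx (15.4 and 9.98 FPKM) and Sucla2 (33.5 and 48.2 FPKM).

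Sucla2 and Dld had the highest ratios of the 30 genes, and Pdhx, Me2 and Idh3g the lowest. Bases upstream of the start of 4 of these genes are shown (RefSeq, GRCm38.p6), 250 each for Dld, Pdhx and Idh3g and 129 for Sucla2, Sucla2 and Dld as the genes with the highest ratios, and Pdhx and Idh3g because each shares this stretch with a neighbour that is transcribed the other way. They lie at chr14:73552536-73552664 on the plus strand (Sucla2), chr12:31351472-31351721 on the minus strand (Dld), chr2:103073514-103073763 on the minus strand (Pdhx) and chrX:73786898-73787147 on the minus strand (Idh3g). Capitals mark ACGTG or GCGTG on either strand, the core of the site bound by hypoxia-inducible factors, searched because Pdk1, a well-known target gene of these factors, was lower in the ALA library. Gene models of GENCODE vM21 (GRCm38) span chr14:73525319-73596142 for Sucla2, chr12:31331277-31351453 for Dld, chr2:103021075-103073513 for Pdhx and chrX:73778963-73786897 for Idh3g, with 11, 14, 11 and 13 exons in the longest coding transcript. For Sucla2 the annotations differ. The RefSeq start is at base 73552786 of chromosome 14, the longest coding transcript of GENCODE starts 121 bases before it, where the printed sequence ends, and the GENCODE gene model starts 27467 bases before it, so the Sucla2 sequence lies inside that gene model.
Sucla2: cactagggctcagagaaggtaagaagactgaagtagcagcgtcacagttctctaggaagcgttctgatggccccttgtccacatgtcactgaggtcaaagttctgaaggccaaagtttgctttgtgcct
Dld: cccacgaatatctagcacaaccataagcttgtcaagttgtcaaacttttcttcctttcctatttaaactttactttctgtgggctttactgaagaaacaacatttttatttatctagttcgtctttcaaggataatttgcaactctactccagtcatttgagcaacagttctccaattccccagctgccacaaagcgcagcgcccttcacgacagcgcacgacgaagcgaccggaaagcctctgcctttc
Pdhx: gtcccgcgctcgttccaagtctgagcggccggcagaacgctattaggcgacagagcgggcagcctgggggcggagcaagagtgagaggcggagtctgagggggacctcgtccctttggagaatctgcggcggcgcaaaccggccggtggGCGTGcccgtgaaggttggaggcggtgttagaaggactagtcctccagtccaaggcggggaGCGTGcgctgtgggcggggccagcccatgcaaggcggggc
Idh3g: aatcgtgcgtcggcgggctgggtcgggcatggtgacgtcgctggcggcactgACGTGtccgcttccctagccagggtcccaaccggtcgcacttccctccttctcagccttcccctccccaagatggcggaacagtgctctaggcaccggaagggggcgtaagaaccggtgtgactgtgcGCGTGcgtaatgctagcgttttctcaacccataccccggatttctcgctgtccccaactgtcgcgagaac

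In the 250 bases before the RefSeq start, Pdhx and Idh3g each held 2 such matches, and Sucla2 and Dld held none. RefSeq promoters were matched for 28 of the 30 genes, with 36 start sites. Of these sites 24 (66.7%) held at least 1 match, against 38.6% of 32851 promoters of the same length. Those 32851 were all RefSeq promoters, not limited to measured genes. By gene, 19 of the 28 held a match. Whether matches went with higher or lower RNA was not tested, and Me2, also among the lowest ratios, is not shown. The members' promoters were also richer in G and C, with a median of 61.0% against 52.4%, and the part of base composition in the match count was not tested. For the genes shown, G and C made up 68.4% (Pdhx), 62.8% (Idh3g), 61.2% (Sucla2) and 43.6% (Dld). The Dld value was the lowest of the members' promoters. GGGCGG, the GC box, was found in 61.1% of the members' promoters and 32.7% of all, and CCAAT in 52.8% and 33.8%. TATAAA was found in 2.78% of the members' promoters and 12.4% of all, and the palindromic site of the factor NRF1 in 0 of the 36 and in 0.78% of all. Each of these was searched on both strands. Upstream of Pdhx, the start of Apip, a methionine salvage enzyme gene on the other strand, lies 162 bases away in the GENCODE annotation. Apip had 27.4 FPKM untreated and 33.2 FPKM with ALA and thus differed in the opposite direction to Pdhx. The start of Ssr4, a subunit gene of the translocon-associated complex, lies 131 bases from that of Idh3g. Ssr4 had 119.8 FPKM untreated and 137 FPKM with ALA, again opposite to its neighbour.

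In the pyruvate dehydrogenase complex, 4 of 5 genes had more RNA with ALA and 1 had less, with a median log2 ratio of 0.25. Pdha1 and Pdhb encode the α and β subunits of the first enzyme, which decarboxylates pyruvate. Pdha1 had 126 FPKM untreated and 128 FPKM with ALA (log2 ratio 0.02). Pdhb had 55.9 FPKM untreated and 66.6 FPKM with ALA (0.25). The values of both are less certain than most, since 18.4% of the 41-base stretches of Pdha1 and 35.2% of those of Pdhb also occur in transcripts of other genes, of which Map3k15 and Gm6123 share the most. Map3k15 had 0.42 FPKM untreated and 0.13 FPKM with ALA, and Gm6123 has no deposited value. Dlat, the acetyltransferase that carries the acetyl group on lipoic acid, had 19.1 FPKM untreated and 23.9 FPKM with ALA (0.31, interval 0.23 to 0.39). Dld, the dihydrolipoamide dehydrogenase that reoxidises lipoic acid in this complex and in the 2-oxoglutarate dehydrogenase complex, had 54.6 FPKM untreated and 76.2 FPKM with ALA and was 1.39-fold higher. Its log2 ratio of 0.47 (interval 0.41 to 0.53) was exceeded by 9.04% of measured genes.

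Pdhx was the lowest of the 30 genes by ratio. It encodes the protein that binds dihydrolipoamide dehydrogenase to the acetyltransferase core. Its level was 15.4 FPKM untreated and 9.98 FPKM with ALA, which correspond to about 905 and 790 reads. The untreated level was 1.55-fold that with ALA, and the log2 ratio was -0.58 (interval -0.71 to -0.45), just short of the 1.5-fold limit on that scale. Of the measured genes 7.26% had a lower ratio. Dld and Pdhx, whose products bind each other, thus differed in opposite directions. The Dld level was 3.54 times that of Pdhx untreated and 7.63 times with ALA. Pdhx stood at 0.81 of the level of Dlat untreated and at 0.42 with ALA. Only 1.60% of the Pdhx sequence occurs elsewhere, and no stretch of Dld or Dlat was found in another gene.

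Of the genes for the steps from citrate formation to 2-oxoglutarate and from fumarate to oxaloacetate, 4 of 6 were higher and 2 lower, with a median log2 ratio of 0.14. Cs, citrate synthase, had 126 FPKM untreated and 156 FPKM with ALA (log2 ratio 0.30, interval 0.26 to 0.34). Mdh2, the mitochondrial malate dehydrogenase that regenerates oxaloacetate, had 146 and 180 FPKM (0.30, interval 0.25 to 0.35). These genes, whose enzymes act one after the other, were the most abundant of this group, and each was 1.23-fold higher. Fh1, fumarate hydratase, had 44.8 FPKM untreated and 51.8 FPKM with ALA (0.21).

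The subunits of NAD-dependent isocitrate dehydrogenase did not share a direction. Idh3a, the catalytic α subunit, had 29.4 FPKM untreated and 29.1 FPKM with ALA, and its log2 ratio of -0.01 became 0.06 when both libraries were scaled to equal totals. Idh3b, the β subunit, had 94.98 and 101 FPKM (0.08). Idh3g, the γ subunit, had 64.8 and 49.3 FPKM (-0.39, interval -0.47 to -0.30). The Idh3g level was 0.68 of that of Idh3b untreated and 0.49 with ALA. In both libraries the α subunit had the lowest level of the 3. Summed over the 3 subunits, the level was 189 FPKM untreated and 179 FPKM with ALA.

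The genes that make or use succinyl-CoA were 3 higher and 3 lower, with a median of -0.01, and the higher ones included the highest ratio of all 30 genes. Ogdh, the decarboxylating first enzyme of the 2-oxoglutarate dehydrogenase complex, had 31.8 FPKM untreated and 30.3 FPKM with ALA (-0.07, which became 0.01 with equal totals). Ogdhl, its paralog, had 20.1 FPKM untreated and 17.6 FPKM with ALA (-0.18). Dlst, the succinyltransferase that releases succinyl-CoA, had 53.6 and 67.4 FPKM, a fold of 1.26 (0.32, interval 0.27 to 0.38). Within this complex the succinyltransferase and the shared Dld were thus higher and the first enzyme was not. The Dlst level was 1.68 times that of Ogdh untreated and 2.22 times with ALA.

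Succinyl-CoA ligase pairs a common α subunit with one of a pair of β subunits, which set whether ATP or GTP is formed. Suclg1, the α subunit, had 56.8 FPKM untreated and 53.3 FPKM with ALA (-0.09). Suclg2, the GTP-forming β subunit, had 37.0 FPKM untreated and 38.5 FPKM with ALA (0.05), but 21.3% of its sequence also occurs in other transcripts, most in Gm15163. Sucla2, the ATP-forming β subunit, had 33.5 and 48.2 FPKM, about 1747 and 3398 reads. It was 1.44-fold higher with ALA, and its log2 ratio of 0.51 (interval 0.43 to 0.59) was exceeded by 7.81% of measured genes. None of the 41-base stretches of Sucla2 occurs in another gene. Of the summed level of both β subunits, Sucla2 made up 47.5% untreated and 55.6% with ALA, so the order of the β subunits differed between the libraries. The α subunit stood at 1.70 times the level of Sucla2 untreated and at 1.10 times with ALA.

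**Figure D2:**
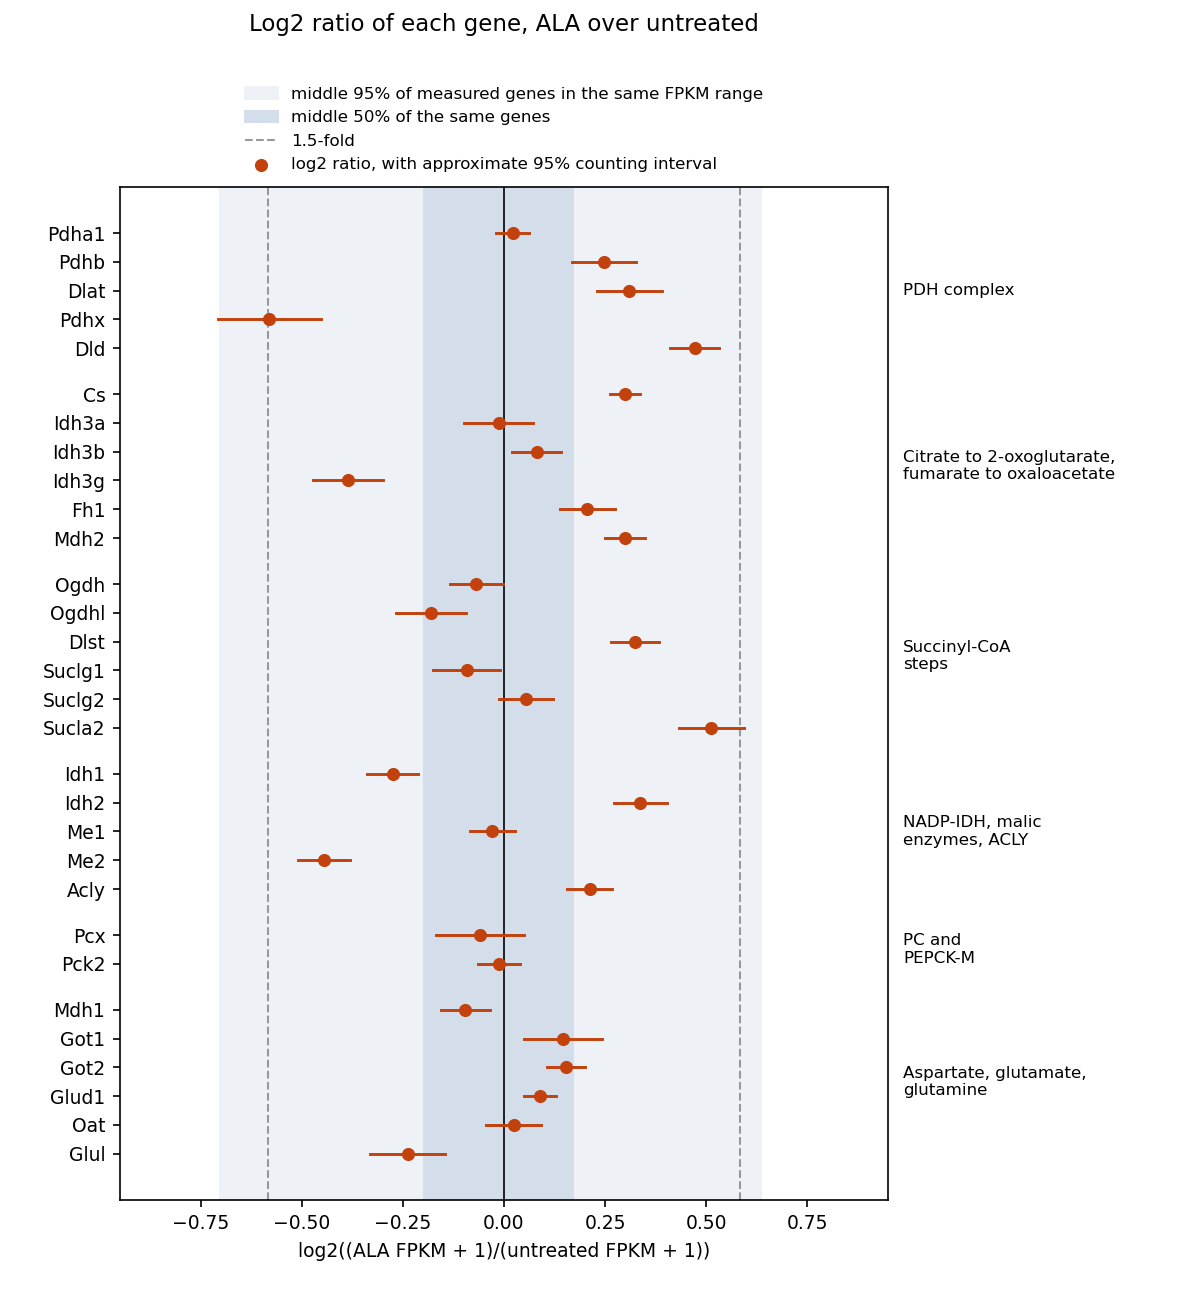
Log2 ratio of each of the 30 genes, ALA over untreated, with approximate 95% counting intervals (bars), against the middle 50% (dark band) and middle 95% (light band) of 6124 measured genes in the same range of mean FPKM, and 1.5-fold (dashed lines). All points lie within the light band; Sucla2 at 0.51 and Dld at 0.47 are highest and Pdhx at -0.58 is lowest.

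Enzymes that use NADP or move citrate and malate carbon out of the cycle were 2 higher and 3 lower, with a median log2 ratio of -0.03. Idh1 and Idh2 encode the cytosolic and the mitochondrial NADP-dependent isocitrate dehydrogenase. Both had 70.8 FPKM in the untreated library. With ALA, Idh1 had 58.3 FPKM (log2 ratio -0.28, interval -0.34 to -0.21) and Idh2 had 89.7 FPKM (0.34, interval 0.27 to 0.40). The paired genes thus separated, and Idh2 stood at 1.54 times the level of Idh1 with ALA, while their sum was 142 FPKM untreated and 148 FPKM with ALA. None of the 41-base stretches of either gene occurs in another gene.

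Me2, the mitochondrial malic enzyme that turns malate into pyruvate, had 59.8 FPKM untreated and 43.7 FPKM with ALA (-0.45, interval -0.51 to -0.38), and the untreated level was 1.37-fold that with ALA. Me1, the cytosolic NADP-dependent form, had 55.8 and 54.6 FPKM (-0.03, which became 0.05 with equal totals). Of the Me1 sequence 34.5% also occurs in other transcripts, most in Gm7049. Acly, which cleaves exported citrate into acetyl-CoA and oxaloacetate in the cytosol, had 39.1 FPKM untreated and 45.4 FPKM with ALA (0.21).

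The genes for carboxylation of pyruvate and for withdrawal of oxaloacetate were close to equal in the libraries. Pcx, pyruvate carboxylase, the classical anaplerotic enzyme, had the lowest level of the 30 genes, with 10.3 FPKM untreated and 9.83 FPKM with ALA (-0.06). Pck2, the mitochondrial phosphoenolpyruvate carboxykinase, had 46.6 FPKM untreated and 46.2 FPKM with ALA (-0.01). With equal library totals these ratios were 0.01 and 0.06, so neither has a direction that holds under both scalings.

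Among the genes that link the cycle to aspartate, glutamate and glutamine, 4 of 6 were higher and 2 lower, all by less than 1.2-fold. Glud1, glutamate dehydrogenase, which forms 2-oxoglutarate from glutamate, had 104 FPKM untreated and 110.2 FPKM with ALA (log2 ratio 0.09). Oat, ornithine aminotransferase, had 58.2 and 59.2 FPKM (0.02). Glul, glutamine synthetase, which consumes glutamate, had 24.2 and 20.3 FPKM (-0.24, interval -0.33 to -0.15), with 18.5% of its sequence shared, most with Glns-ps1. Mdh1, Got1, Got2 and Mdh2 are the enzymes of the malate-aspartate shuttle, which carries reducing equivalents into mitochondria. Got1 had 27.4 FPKM untreated and 30.4 FPKM with ALA (0.15), and Got2 had 99.3 and 111 FPKM (0.15), with 52.0% of the Got2 sequence shared, most with Gm10874. Mdh1 had 77.5 and 72.4 FPKM (-0.10, interval -0.16 to -0.04). Got2 stood at 3.62 times the level of Got1 untreated and at 3.63 times with ALA. The ratio of Mdh2 to Mdh1 was 1.89 untreated and 2.49 with ALA.

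**Figure D3:**
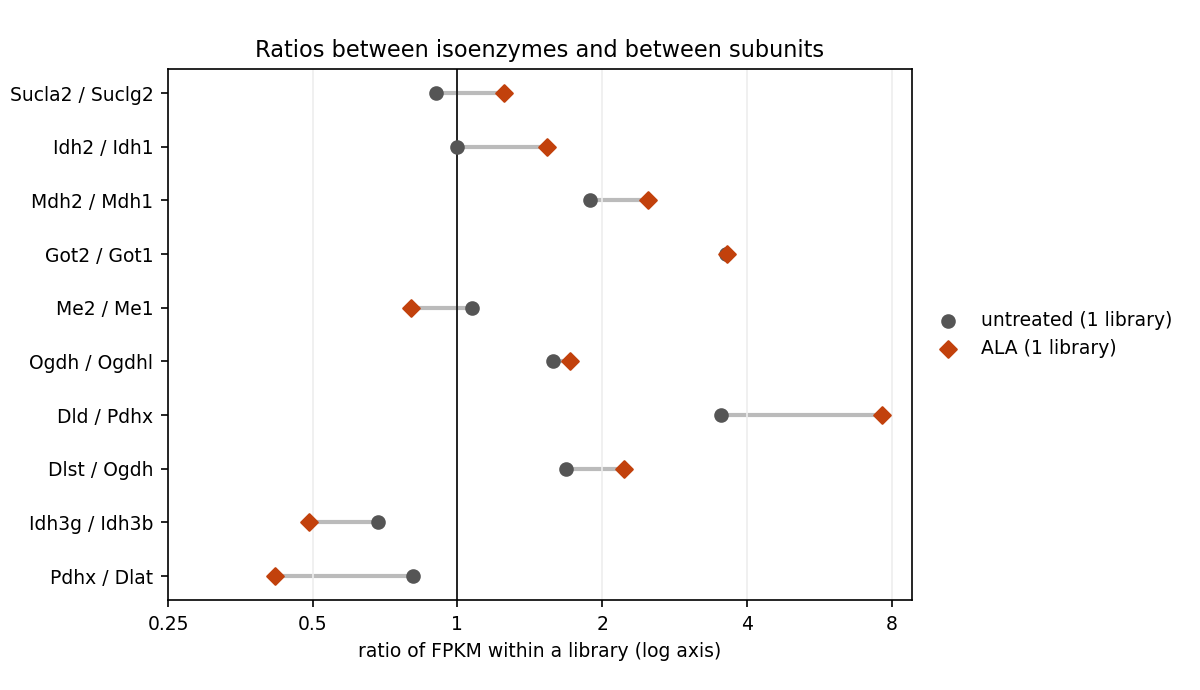
Ratio of FPKM between related genes within each library (log axis), untreated (grey circles) and ALA (orange diamonds), 1 library each. Idh2 and Idh1 were level untreated and at a ratio of 1.54 with ALA, the ratio of Dld to Pdhx was 3.54 and 7.63, and that of Got2 to Got1 3.62 and 3.63.

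By counting error alone, the intervals of 14 of the 30 genes lay above 0, those of 9 below 0, and those of 7 spanned 0. Among 5891 measured genes of the same level range with a known transcript length, 36.2% of the intervals lay above 0 and 40.2% below 0, so intervals clear of 0 were about as common among other genes as among the 30. These intervals are narrow because most of the genes are abundant, with about 790 to 14392 reads each, and they do not include variation between cultures. In 24 of the 30 genes less than 10% of the sequence was shared with or overlapped other genes. Across 3 scalings (as deposited, equal library totals and centring on the median of all measured genes) 17 genes were higher and 8 lower under each, and 5 genes changed sign, namely Idh3a, Ogdh, Me1, Pcx and Pck2.

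Other genes of the same pathways, 43 in a separate list that holds none of the 30, had log2 ratios over a wider range. Of these, 40 were measured, with 25 higher and 15 lower (62.5% higher) and a median log2 ratio of 0.10. Of all measured genes 47.8% were higher, with a median of -0.02. The list's median was 0.03 when genes with shared or overlapping sequence were left out. With equal library totals it was 0.17, and that of all measured genes was 0.05. Their ratios ran from -1.32 to 0.72, against -0.58 to 0.51 for the 30 genes. The list includes genes at lower levels than any of the 30, such as Lipt1 and Lipt2. Of all measured genes 13.1% reached 1.5-fold, against 7.27% in the level range of the 30. The part of level in the wider range was not tested. At 1.5-fold 3 of the 40 were higher and 4 lower, where the background of all measured genes was 5.9% higher and 7.16% lower. The kinases that phosphorylate and switch off the pyruvate dehydrogenase complex differed among themselves. Pdk1 had the lowest ratio of the list, with 64.0 FPKM untreated and 25.03 FPKM with ALA (-1.32, interval -1.37 to -1.27). Pdk2 had 9.21 FPKM untreated and 7.89 FPKM with ALA (-0.20). Pdk3 had 25.2 FPKM untreated and 25.7 FPKM with ALA (0.03). Pdk4 had 11.7 FPKM untreated and 14.2 FPKM with ALA (0.26). Untreated, Pdk1 was thus the most abundant kinase gene, and with ALA its level was close to that of Pdk3.

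The genes with the highest ratios in that list make or attach lipoic acid, the cofactor carried by the Dlat, Dlst and Pdhx proteins. Lias, lipoic acid synthase, had 12.99 FPKM untreated and 21.6 FPKM with ALA and was 1.66-fold higher (0.69, interval 0.59 to 0.80). Lipt2, which transfers the octanoyl precursor, had 1.202 FPKM untreated and 2.64 FPKM with ALA (0.72, interval 0.44 to 1.01). Lipt1, which passes lipoic acid on to the dehydrogenase complexes, had 1.79 FPKM untreated and 3.57 FPKM with ALA (0.71, interval 0.43 to 0.998). Lipt1 shares 12.8% of its exon bases with Mitd1 on the other strand, and no strand setting is given, so its reads cannot be separated with certainty. All 3 genes of lipoate synthesis in the list were higher, a subset singled out after its values were seen.

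The 4 subunits of succinate dehydrogenase, which oxidises the succinate released from succinyl-CoA, went both ways. Sdha had 89.9 FPKM untreated and 85.4 FPKM with ALA (-0.07, which became 0.00 with equal totals). Sdhb, the iron-sulfur subunit, had 86.1 and 72.2 FPKM (-0.25). The membrane subunits were higher, Sdhc with 82.6 and 109 FPKM (0.39) and Sdhd with 122 and 145 FPKM (0.26). Of the 4 assembly factor genes, Sdhaf1 was higher, at 0.28, and Sdhaf2, Sdhaf3 and Sdhaf4 were lower, at -0.12, -0.60 and -0.75. Of the Sdhaf1 sequence 69.1% also occurs in other transcripts, most in E130208F15Rik, so its value is the least certain of the 4. For Sdhaf4 the shared part is 11.2%. Slc25a22, a mitochondrial glutamate carrier, had 5.13 FPKM untreated and 8.08 FPKM with ALA (0.57).

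Besides 2-oxoglutarate dehydrogenase, succinyl-CoA is formed from propionyl-CoA, and it is used by ALA synthase and by the ketone body enzyme encoded by Oxct1. Alas1, the ALA synthase gene of most tissues, had 10.2 FPKM untreated and 4.52 FPKM with ALA (-1.02, interval -1.16 to -0.88), and Alas2, the erythroid form, was listed at 0 in both libraries. Named outside the rule because they act on succinyl-CoA or its precursors, Pcca and Pccb, the subunit genes of propionyl-CoA carboxylase, had log2 ratios of 0.37 and 0.10. Mcee, methylmalonyl-CoA epimerase, had 7.41 FPKM untreated and 4.75 FPKM with ALA (-0.55, interval -0.84 to -0.25). Mut, methylmalonyl-CoA mutase, which forms succinyl-CoA, had 17.9 and 18.04 FPKM (0.01). Oxct1 had 150.2 FPKM untreated and 161 FPKM with ALA (0.10), the highest level of any gene in this list, with 12.6% of its exon bases in BC037032.

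**Figure D4:**
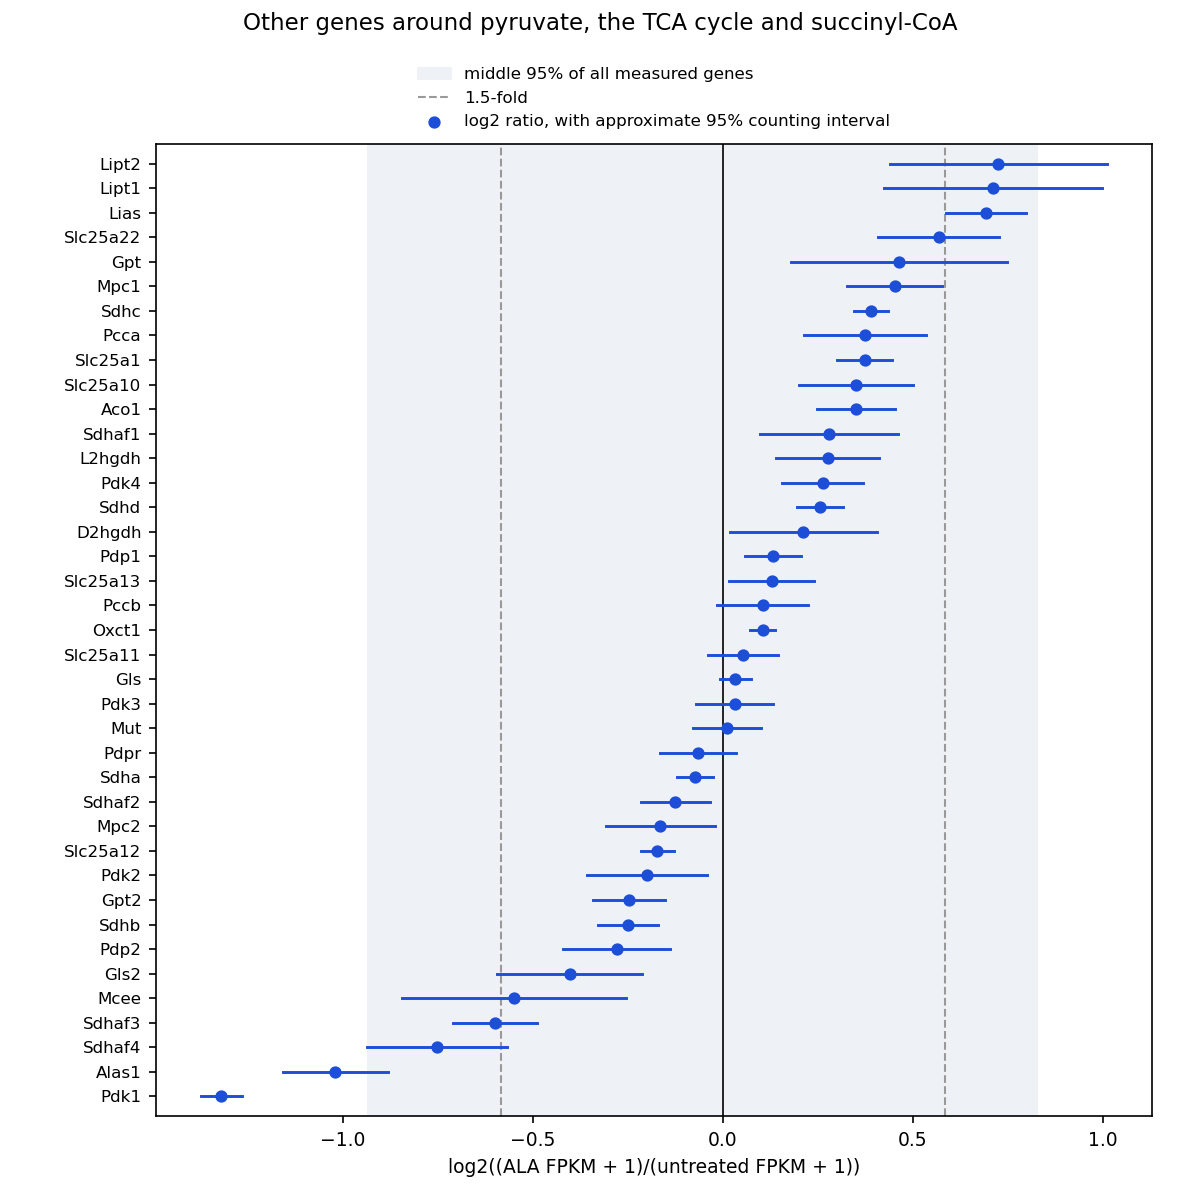
Log2 ratio, ALA over untreated, of 39 of the 40 measured genes of the separate pathway list, with approximate 95% counting intervals (bars), the middle 95% of all measured genes (band) and 1.5-fold (dashed lines). Pdk1 at -1.32 and Alas1 at -1.02 lie below the band, and Lias, Lipt1 and Lipt2 are the only points above the upper 1.5-fold line.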

How the data were processed

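The deposited FPKM values were made by the authors with FastQC 0.11.5, TopHat2 2.1.1 and Cufflinks 2.2.1 (build mm10), per the submitters' processing notes, which give names, versions and build only. Libraries were TruSeq mRNA libraries read as single-end reads of 41 bases, per the labels' protocols. Annotation, strand and scaling options are not named there. The deposited lower and upper FPKM bounds equal each other for every gene and carry no error. The members and lists were chosen with earlier results of these data known.

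The log2 ratio used a pseudocount of 1, which understates low genes, and only genes that averaged 1 FPKM or more entered counts. Depth was estimated from steps between low values: at a relative depth of 1.35, 35.1% of the ratios of 461 low genes lay near ratios of small whole numbers, against 14.5% at other depths. The estimate is rough, and intervals rest on it. In simulated counts at these depths, 98.0% of 50 genes changed 1.3-fold passed 1.2-fold, and 0.0% of 6026 unchanged genes did. Of 50 genes changed 1.8-fold, 100.0% passed 1.5-fold, and of 50 changed 1.5-fold, 38.0% did. A change equal to the limit falls on either side of it by counting error, and the pseudocount lowers its ratio. The simulation drew counting error only, without variation between cultures, so it gives no detection rate for differences between cultures. Gene models and shared 41-base stretches, counted as exact matches only, came from GENCODE vM21 (GRCm38, the assembly of mm10). The stretches were those of each gene's protein-coding transcripts, searched in the annotated transcripts of other genes, coding or not. Named genes were all 30 members and, of the other pathway genes, the 8 with the largest absolute log2 ratios, Alas1, the succinate dehydrogenase subunits, the Pdk genes and 1 gene that is not reported here, which stays in the list's counts. Genes named outside the rule are Sdhaf1, Sdhaf2, Pcca, Pccb, Mcee, Mut and Oxct1. Python 3.11.15, numpy 2.4.6 and pandas 2.3.3 were used. Alternatives were pseudocounts of 0.1 and 5, no filter, a mean of at least 5 FPKM, equal library totals, median centring, and leaving out genes with at least 10% shared or overlapping sequence. The plain ratio, the 1.2-fold limit and the background within the members' level range were added after the data were seen.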

Additional observations from a re-analysis of the deposited data

How the results depend on the processing

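Equal library totals, which multiply the ALA values by 1.06, lowered the number of the 30 genes that were lower from 13 to 8, and 22 were higher. The number at 1.5-fold was 0 as reported and 1 with a pseudocount of 0.1 and with the plain ratio (Pdhx each time), and 1 with equal library totals (Sucla2). The number at 2-fold was 0 under every setting run. The medians of the 30 genes, of the other pathway genes and of the 6 groups of steps each moved by no more than 0.1 on the log2 scale under the alternatives. Several of these medians were themselves smaller than 0.1. With equal library totals that of the 30 genes went from 0.04 to 0.12. The group medians below 0 changed sign, from -0.01 to 0.07 for the succinyl-CoA steps and from -0.04 to 0.04 for Pcx and Pck2. That of the NADP isocitrate dehydrogenases, malic enzymes and Acly went from -0.03 to 0.05. Single genes moved beyond their counting interval with equal totals in 19 cases and with a pseudocount of 5 in 1 case. No paired analysis was possible because each group has 1 library and no test was made. Depth limits single ratios to an approximate counting interval, and with 1 library per group variation between cultures cannot be separated from the treatment.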

Other observations

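Neighbouring genes on opposite strands with nearby starts were examined after the values were seen. Of the 30 genes, 7 had a protein-coding neighbour on the other strand whose start lies within 1000 bases, inside the member's gene model for Mdh1 and Glul. In 5 of these pairs the neighbour was measured, and in 1 pair, Mdh1 with Wdpcp, member and neighbour differed in the same direction. The share over all such pairs of measured genes was not computed, so this count cannot be called particular to the 30 genes. Wdpcp overlaps 2.03% of the exon bases of Mdh1 on the other strand, and no strand setting is given. Prox2, whose start lies 74 bases from that of Dlst, had 4.29 FPKM untreated and 1.65 FPKM with ALA (log2 ratio -0.998), while Dlst was higher. Pikfyve, a lipid kinase gene that starts 183 bases from Idh1, had 5.08 FPKM untreated and 8.11 FPKM with ALA (0.58), while Idh1 was lower.

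By the compartment of the encoded enzyme, a split also made after the values were seen, 15 of 24 mitochondrial genes were higher and 2 of 6 cytosolic genes, Acly and Got1. The medians were 0.07 and -0.06 on the log2 scale, while 47.8% of all measured genes were higher, with a median of -0.02. With equal library totals 19 of 24 and 3 of 6 were higher, with medians of 0.15 and 0.01, and 56.9% of all measured genes were higher, with a median of 0.05. The difference between the compartments was not tested.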
